A study of Mus musculus with 4 samples.

Results

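The leukocyte integrin genes examined here were 10 genes of the β2, β7 and β1 integrins, namely Itgax, Itgam, Itgad, Itgal, Itgb2, Itgae, Itgb7, Itga4, Itgb1 and Itgav. They were chosen by name, and the counts of all transcripts carrying a member's symbol were summed. They are 10 of the 40213 symbols in the count files, and all 10 were among the 12393 genes kept by the filter on low counts. RNA-seq had been performed on CD24+ emergency progenitors (EPs, CD11c+CD117+ cells that gather in the spleen under Flt3L) sorted on day 9 from mice given 10 µg of Flt3L-Ig intraperitoneally on days 0 and 3. In 2 libraries, replicates 1 and 2, the cells came from TopBP1 fl/fl littermates (WT), and in replicates 1 and 2 of the other group from mice labelled TopBP1 fl/fl, CD11c-cre (TopBP1 cKO). Both groups carried the floxed TopBP1 alleles and both received Flt3L-Ig, and the study's mice were 7 to 10 weeks old. The Cre transgene is driven by the promoter of CD11c, the product of Itgax, so 1 of the 10 genes is tied both to the deletion and to the sorting gate. The libraries held 14561583 and 15193831 counts (WT) and 15148032 and 15093476 counts (labelled TopBP1 cKO).

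The labels were checked first. Topbp1, the gene targeted in the cKO mice, was counted 1102 and 1143 times in WT, 773 times in replicate 1 labelled TopBP1 cKO and 1279 times in replicate 2. Replicate 2 was thus above both WT libraries, and the log2 fold change over all 4 libraries was −0.20 (SE 0.21, FDR = 0.774, edgeR quasi-likelihood test, where FDR is the Benjamini–Hochberg adjusted P). Without replicate 1 labelled TopBP1 cKO it turned to 0.11 (FDR = 0.56), and without replicate 2 it was −0.60 and passed the threshold (FDR = 0.0167, edgeR quasi-likelihood test). Counts over a whole gene do not separate deleted from intact exons, and the group is called "cKO-labelled" below. Kit and Cd24a, genes of the gate, were abundant in every library. Kit, the receptor CD117, stood at 481 and 475 CPM (counts per 1000000 of the library total as scaled by TMM) in WT and at 395 and 383 CPM in the cKO-labelled libraries, a log2 fold change of −0.30 (SE 0.12, FDR = 0.436). Cd24a stood at 972 and 926 against 885 and 756 CPM. Flt3 and Xcr1 are given beside them but are not part of the stated gate. Flt3, the Flt3L receptor, was at 717 and 699 against 663 and 614 CPM. Xcr1, a chemokine receptor of cDC1s, was at 734 and 753 against 626 and 701 CPM.

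Integrins are surface heterodimers of an α and a β subunit that bind cells and matrix, and neither subunit reaches the surface well alone. In leukocytes β2 (Itgb2, CD18) pairs with αL (Itgal, LFA-1), αM (Itgam, CD11b, Mac-1), αX (Itgax, CD11c) and αD (Itgad, CD11d). The β7 subunit (Itgb7) pairs with αE (Itgae, CD103), which binds E-cadherin, and with α4 (Itga4), which directs cells to the gut, whereas β1 (Itgb1) pairs with α4 to bind VCAM1 and with many other α chains, and αV (Itgav) joins several β chains. CD11c marks dendritic cells, CD11b marks cDC2s and other myeloid cells, and CD103 marks a subset of cDC1s.

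None of the 10 genes passed FDR < 0.05 in edgeR's quasi-likelihood test, by which 0.105% of all genes tested were called, and 3 of 10 had an unadjusted P < 0.05, all of them higher in the cKO-labelled libraries. These 3 were the α subunit genes Itgad, Itgam and Itgae. Of all genes tested, 10.7% had an unadjusted P < 0.05, with 6.95% of genes tested higher and 3.77% lower. In 4 members (Itgax, Itgam, Itgad and Itgae) both cKO-labelled libraries lay above both WT libraries, a pattern seen in 22.8% of genes tested, and in 2 members (Itga4 and Itgb1) both lay below, as in 20.8% of genes tested. The median log2 fold change was 0.03 over the members and 0.01 over all genes tested. Under the DESeq2 Wald test 3 members passed FDR < 0.05, where 1.11% of all genes tested did. Under edgeR's likelihood ratio test 3 members and 1.89% of all genes passed, and under limma-voom 0 members and 0.105% of all genes. With 2 libraries against 2, an exact permutation test of a single gene cannot give a P below 0.333. Whether the libraries of a group came from separate mice is not given in the sources used here, so P values measure only the spread between these libraries.

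**Figure D1:**
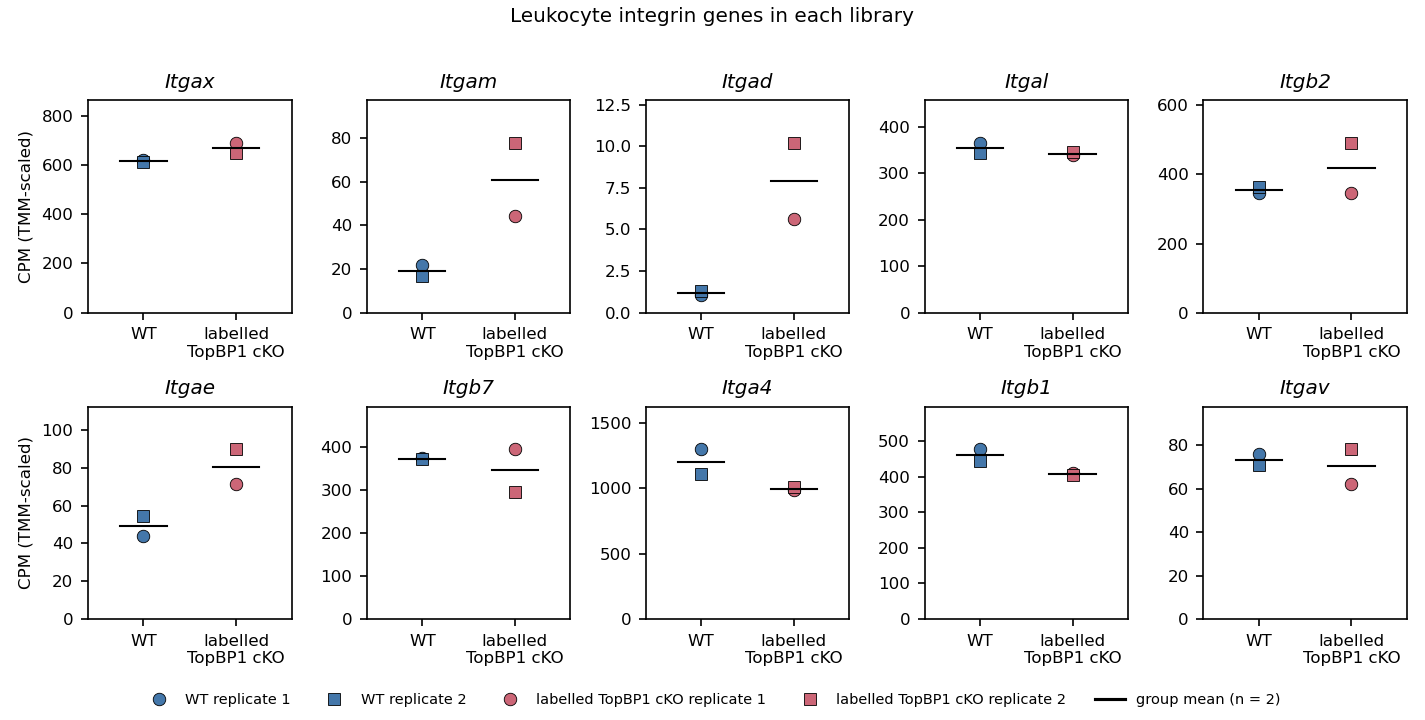
TMM-scaled CPM (vertical axis from 0, own scale for each gene) of the 10 integrin genes in the WT libraries (blue) and the cKO-labelled libraries (red). Circles are replicate 1, squares are replicate 2 and lines are group means (n = 2). Itgam, Itgad and Itgae lie higher in both cKO-labelled libraries, whereas Itgal and Itgav overlap between the groups.

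Among the α partners of β2, Itgax had the highest level per kilobase of transcript. Its level was 620.1 and 614 CPM in WT and 689.9 and 649 CPM in the cKO-labelled libraries. The groups did not overlap, but the difference was small, with a log2 fold change of 0.12 (SE 0.12, 95% interval −0.17 to 0.41, FDR = 0.775).

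Itgam, which encodes CD11b, was at 21.6 and 16.7 CPM in WT (305 and 253 counts) and at 44.1 and 77.7 CPM in the cKO-labelled libraries (672 and 1201 counts). Both of the latter were above both WT libraries and replicate 2 was the highest. The mean was 19.1 ± 3.40 CPM (SD, n = 2) in WT and 60.9 ± 23.7 CPM (SD, n = 2) in the other group. The log2 fold change was 1.67 (SE 0.27, 95% interval 1.04 to 2.30, unadjusted P = 0.000321, FDR = 0.153, edgeR quasi-likelihood test), which did not pass the threshold. It was 2.02 without cKO-labelled replicate 1, 1.20 without replicate 2, 1.86 without WT replicate 1 and 1.49 without WT replicate 2. On all 4 libraries FDR was 9.39e-07 in the DESeq2 Wald test, 5.38e-06 in the likelihood ratio test and 0.28 in limma-voom.

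Itgad, which encodes CD11d, a subunit known from tissue macrophages, had the lowest level of the members per kilobase of transcript. It had 15 and 20 counts in WT and 86 and 158 counts in the cKO-labelled libraries, that is 1.06 and 1.32 against 5.65 and 10.2 CPM. The cKO-labelled replicate 2 was again the highest, and the groups did not overlap. The log2 fold change of 2.72 was the largest of the 10 genes (SE 0.40, 95% interval 1.80 to 3.65, unadjusted P = 0.00016, FDR = 0.103, edgeR quasi-likelihood test). It was 3.09 without cKO-labelled replicate 1, 2.23 without replicate 2, 2.58 without WT replicate 1 and 2.88 without WT replicate 2. On all 4 libraries FDR was 0.0001 in the DESeq2 Wald test, 1.53e-06 in the likelihood ratio test and 0.28 in limma-voom.

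Itgal, the αL chain of LFA-1, differed little between the libraries, at 366 and 345 CPM in WT and 339 and 346 CPM in the cKO-labelled libraries (log2 fold change −0.05, SE 0.12, 95% interval −0.33 to 0.22, FDR = 0.907). Itgb2, the shared β2 chain, was at 346 and 362 CPM in WT. It was at 347 CPM in cKO-labelled replicate 1 and at 491 CPM in replicate 2, so the higher mean of that group came from 1 library. Its log2 fold change was 0.24 (SE 0.17, 95% interval −0.16 to 0.64, FDR = 0.663), and −0.038 without cKO-labelled replicate 2.

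None of the chains of the β7 integrins passed FDR < 0.05 in the edgeR quasi-likelihood test on all 4 libraries. The DESeq2 Wald test (FDR = 0.0373) and the likelihood ratio test (FDR = 0.0222) called Itgae. Itgae, which encodes CD103, was at 43.7 and 54.5 CPM in WT and at 71.4 and 89.8 CPM in the cKO-labelled libraries, with no overlap. The log2 fold change was 0.71 (SE 0.17, 95% interval 0.32 to 1.10, unadjusted P = 0.00303, FDR = 0.307, edgeR quasi-likelihood test). It was 0.87 without cKO-labelled replicate 1, 0.53 without replicate 2, 0.56 without WT replicate 1 and 0.87 without WT replicate 2. Itgae was not called by limma-voom (FDR = 0.445). Its partner Itgb7 was at 374 and 371 CPM in WT and at 395 and 296 CPM in the other group, on both sides of the WT values (log2 fold change −0.11, SE 0.16, 95% interval −0.47 to 0.26, FDR = 0.847). Itga4, the other α chain of β7 and also a chain of VLA-4, was at 1298 and 1105 CPM in WT and 987 and 1008 CPM in the cKO-labelled libraries. Both of the latter were lower (log2 fold change −0.27, SE 0.14, 95% interval −0.60 to 0.07, FDR = 0.557), and the log2 fold change was −0.15 without WT replicate 1 and −0.39 without WT replicate 2.

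Itgb1 was at 478 and 444 CPM in WT and at 410.2 and 406 CPM in the cKO-labelled libraries, again lower in both (log2 fold change −0.18, SE 0.12, 95% interval −0.46 to 0.10, FDR = 0.644). Itgav overlapped between the groups, with 75.9 and 70.7 against 62.3 and 78.1 CPM (log2 fold change −0.06, SE 0.15, 95% interval −0.40 to 0.28, FDR = 0.917). For the 7 genes other than Itgam, Itgad and Itgae the 95% intervals lay between −0.60 and 0.64 on the log2 scale.

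**Figure D2:**
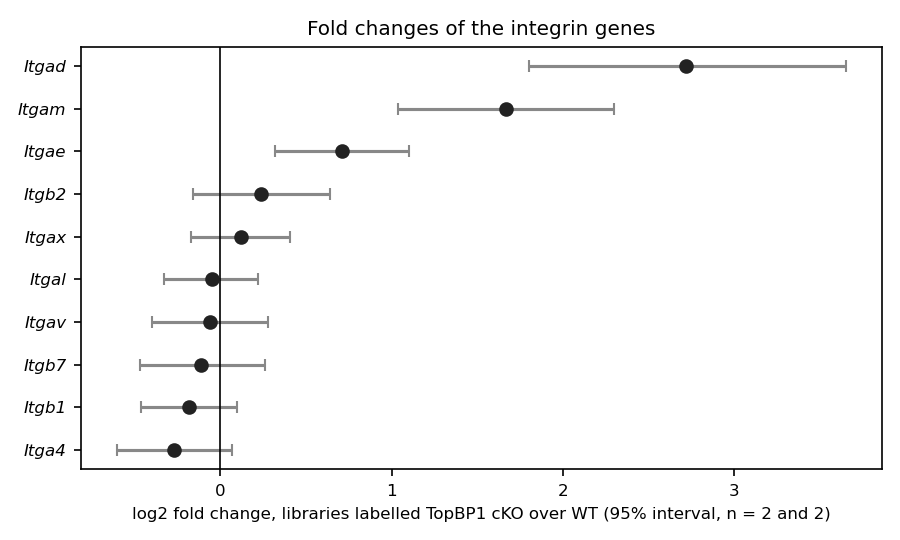
Log2 fold change of each integrin gene in the cKO-labelled libraries over WT (horizontal axis). Points are edgeR quasi-likelihood estimates and bars are 95% intervals (n = 2 libraries in each group). The intervals of Itgad, Itgam and Itgae lie above 0, and those of the other members include 0.

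Levels of different genes were compared as CPM per kilobase of transcript, with the longest matched transcript as the length for all 10 members. On that scale Itgax led the members, with 153 and 152 CPM per kilobase in WT and 171 and 160.4 in the cKO-labelled libraries. In WT it was followed by Itgb7 (139.5 and 138), then by Itga4, Itgb1 and Itgb2, whose libraries overlapped between neighbours in the order and ran from 113 to 133. Below these stood Itgal (70.1 and 66.1), Itgae (11.4 and 14.2), Itgav (10.8 and 10.0), Itgam (4.60 and 3.57) and Itgad (0.267 and 0.334), and the libraries of these neighbours did not overlap. In the cKO-labelled libraries the order changed at 3 places. Itgb2 (117 and 165) stood second, overlapping with Itgax above it and Itgb7 below it (147 and 110.4). Itgb1 (108 and 106) stood above Itga4 (101 and 103), without overlap, whereas in WT they overlapped. The gap is small, and this order rests on the lengths taken (3815 bases for Itgb1 and 9767 for Itga4). Itgam (9.42 and 16.6) stood above Itgav (8.83 and 11.1), with overlap, so that CD11b and αV transcripts were no longer apart.

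**Figure D3:**
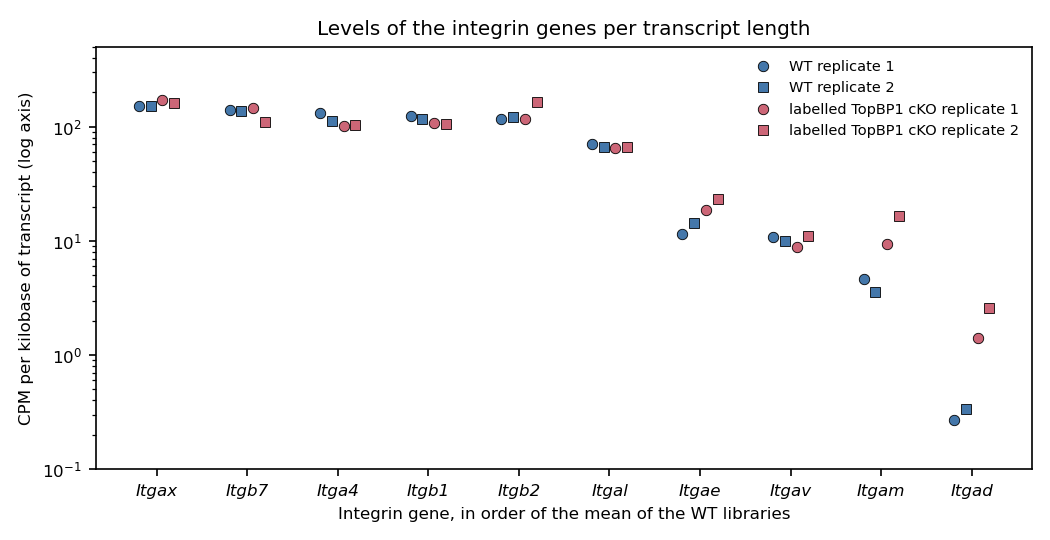
Level of each integrin gene as CPM per kilobase of transcript (vertical log axis) in the 4 libraries, with genes ordered by the mean of the WT libraries. Blue marks WT and red marks cKO-labelled libraries, with circles for replicate 1 and squares for replicate 2. The span runs from Itgad at 0.267 to Itgax at 171 CPM per kilobase.

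Ratios within a library do not depend on the scaling between libraries. On the scale per kilobase, Itgam was 3.00% and 2.35% of Itgax in WT and 5.52% and 10.3% in the cKO-labelled libraries. Relative to the β chain, Itgam was 3.95% and 2.93% of Itgb2 in WT and 8.07% and 10.0% in the other group, so the ratio was higher in both libraries whether or not Itgb2 was. Itgad was 0.174% and 0.220% of Itgax in WT and 0.835% and 1.61% in the cKO-labelled libraries. Itgax made up 67.2% and 68.5% of the sum of the α chains of β2 in WT and 69.2% and 65.3% in the other group. The cells of both groups had been sorted on CD11c, its product, so this lead cannot be told apart from the gate. Between the α chains of β7, Itgae was 8.56% and 12.5% of Itga4 in WT and 18.4% and 22.6% in the cKO-labelled libraries. The ratio of Itga4 to Itgb1 lay between 0.939 and 1.06 in all 4 libraries. In these bulk samples a change in the share of cells that express a gene and a change in its RNA per cell cannot be told apart.

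The files count each transcript on its own, and the 10 genes had 32 transcripts, 30 of them with a count. Itgam had the only transcript of at least 100 counts that was counted in both libraries of one group and in neither of the other. Transcript NM_001082960.1 had 305 and 253 counts in WT and 390 and 614 counts in the cKO-labelled libraries. Transcript NM_008401.2 had 0 counts in both WT libraries and 282 and 587 in the cKO-labelled libraries. That was 42.0% of Itgam counts in replicate 1 (95% Wilson interval 38.3 to 45.7) and 48.9% in replicate 2 (46.1 to 51.7). In WT, 0 of 305 and 0 of 253 would allow a share of up to 0.984% and 1.19%. These limits and intervals cover counting error only and hold only if every count can tell the transcripts apart, which most cannot, so they are too narrow. Among transcripts with at least 100 counts in the series, 1.53% were at 0 in both WT libraries and counted in both others, and 1.30% the reverse. NM_008401.2 entered the test on single transcripts only through the cKO-labelled libraries. Its unadjusted P = 0.00291 (edgeR quasi-likelihood) therefore adds nothing to the counts. No transcript in the series passed FDR < 0.05 in that test.

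In the GENCODE M21 transcripts matched to these accessions (GRCm38, 4682 and 4649 bases), 1 coding stretch differs apart from the outermost 100 bases at either end, which were not compared. It is shown because only reads over it, or at the ends, can tell the transcripts apart. It starts at base 1571 of NM_001082960.1 and base 1542 of NM_008401.2, and the capitals mark the bases found in NM_001082960.1 alone.
Itgam NM_001082960.1: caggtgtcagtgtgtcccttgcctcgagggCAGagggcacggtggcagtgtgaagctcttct
Itgam NM_008401.2: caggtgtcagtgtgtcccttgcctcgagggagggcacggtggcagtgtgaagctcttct
The 3 added bases leave the reading frame as it is. The counts of each transcript therefore depend on how the authors' counting divided the reads that fit both, and the summed Itgam count does so less. Whether the deposited counts are reads or rounded estimates from Salmon is not given in the sources used here, so a transcript at 0 is one to which no count was assigned.

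The other members' transcripts were counted in both groups or were rare. In Itgav the leading transcript differed between the groups, although the sums overlapped. NM_008402.4 had 805 and 681 counts in WT and 274 and 520 in the cKO-labelled libraries, whereas NM_001398691.1 had 269 and 388 in WT and 675 and 688 in the others (unadjusted P = 0.0131, edgeR quasi-likelihood). Itgb2 XM_006513271.4 had 634 and 796 counts in WT and 1278 and 1573 in the cKO-labelled libraries (unadjusted P = 0.00669, edgeR quasi-likelihood), above WT in both. Itgae NM_008399.4 had 356 and 527 counts in WT and 790 and 1015 in the others, and accounted for most of the difference in the Itgae sum. These and NM_008401.2, which was set against 0 counts in WT, were the 4 of 26 tested member transcripts with an unadjusted P < 0.05. That threshold was met by 6.82% of all transcripts tested. All Itgad counts of a library fell on 1 transcript, which was XM_036153200.1 in WT replicate 2 (20 counts) and XM_006507972.3 in the other libraries (15, 86 and 158 counts).

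**Figure D4:**
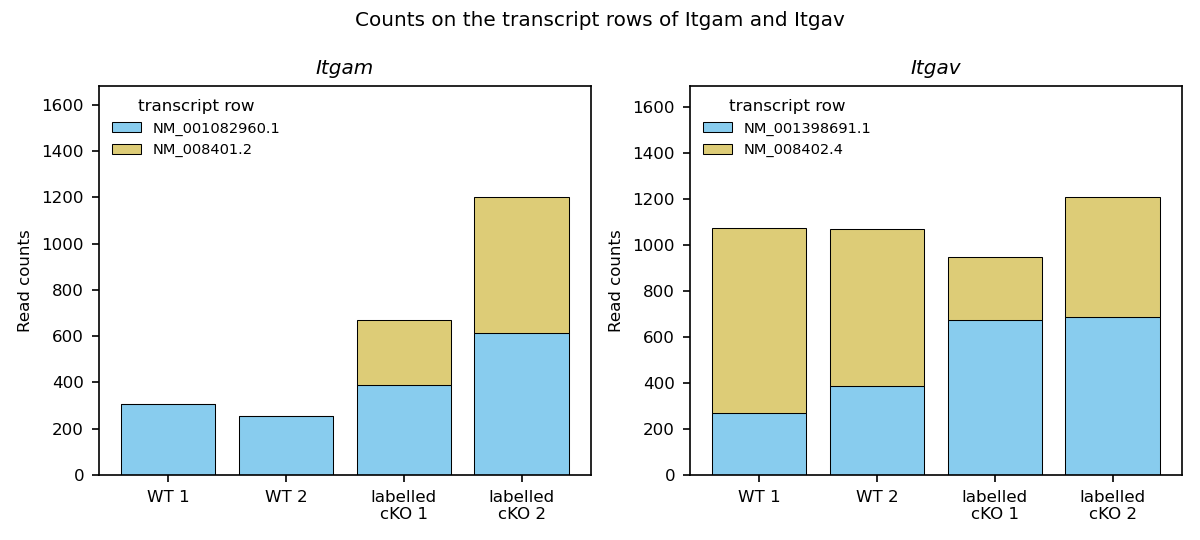
Deposited counts (vertical axis from 0) on each transcript of Itgam (left) and Itgav (right) in the 4 libraries. Stacked colours are the transcripts, and the height of a bar is the gene's sum. NM_008401.2 of Itgam is at 0 in both WT libraries, and NM_001398691.1 of Itgav takes the larger part of the counts only in the cKO-labelled libraries.

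Itgam, Itgax and Itgad lie side by side on mouse chromosome 7, an arrangement that goes back to gene duplication. In the GENCODE M21 transcripts of each gene, Itgax and Itgad share 512 stretches of 31 bases, which are 11.8% of those of Itgax and 11.3% of those of Itgad, and no other pair of members shares any. The longest identical coding run of Itgax NM_021334 and Itgad NM_001029872 is 188 bases, from base 1201 to base 1388 of the Itgax coding sequence. Its first 120 bases are shown because reads inside it fit both of these transcripts.
Itgax and Itgad: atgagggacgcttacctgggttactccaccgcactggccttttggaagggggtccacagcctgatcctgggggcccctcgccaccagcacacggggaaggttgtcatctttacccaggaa
NM_001029872 itself had 0 counts in all libraries, and the sequences of the Itgad transcripts that did have counts were not compared here. Whether any Itgad counts came from reads of the far more abundant Itgax was not tested. Itgax itself, at 8776 and 9285 counts in WT and 10511 and 10034 in the cKO-labelled libraries, had a fitted ratio between the groups of 1.08, against 6.61 for Itgad.

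In the order of genes of the RefSeq annotation (GRCm38.p6), the long noncoding gene Gm39091 lies within the span of Itgad and Cox6a2 overlaps its end. Both were almost absent in WT and passed FDR < 0.05. They passed the filter on low counts only through the cKO-labelled libraries, where they were high, so their FDR values are descriptions only. Neither was tested when at least 10 counts were required in every library. Gm39091 had 2 and 3 counts in WT and 54 and 89 in the cKO-labelled libraries, a ratio of 27.3 (95% exact binomial interval 11.4 to 85.3, counting error only, FDR = 0.0421, edgeR quasi-likelihood test). That call was lost without WT replicate 1 (FDR = 0.0962), without WT replicate 2 (FDR = 0.196) and under limma-voom (FDR = 0.146), in a span of 2.6e-11 to 0.196 over the alternatives. Cox6a2, which encodes a subunit of cytochrome c oxidase known from striated muscle and pDCs, had 0 and 3 counts in WT and 183 and 168 in the cKO-labelled libraries (ratio 112, interval 37.9 to 544, FDR = 0.00762). All 3 WT counts were in WT replicate 2, and without it WT was at 0 and the log2 fold change went from 6.69 to 10.42, a value that then depends on the prior count (FDR = 0.00947, with a span of 2.5e-32 to 0.0335 over the alternatives). Without a stated use of strand, reads of overlapping genes cannot be told apart. The log2 fold changes of the 5 nearest tested genes on each side of this stretch ran from −0.53 (Tgfb1i1) to 0.20 (Bckdk), with a median of −0.00, and 0 of these 10 genes had an unadjusted P < 0.05 in the edgeR quasi-likelihood test. These flanking genes were chosen after values of the stretch were seen. Around Itgal, elsewhere on chromosome 7, the 5 nearest tested genes on each side ran from −0.40 to 0.34, and 1 of them, Sephs2 (0.34, SE 0.15, FDR = 0.465), met the unadjusted threshold.

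**Figure D5:**
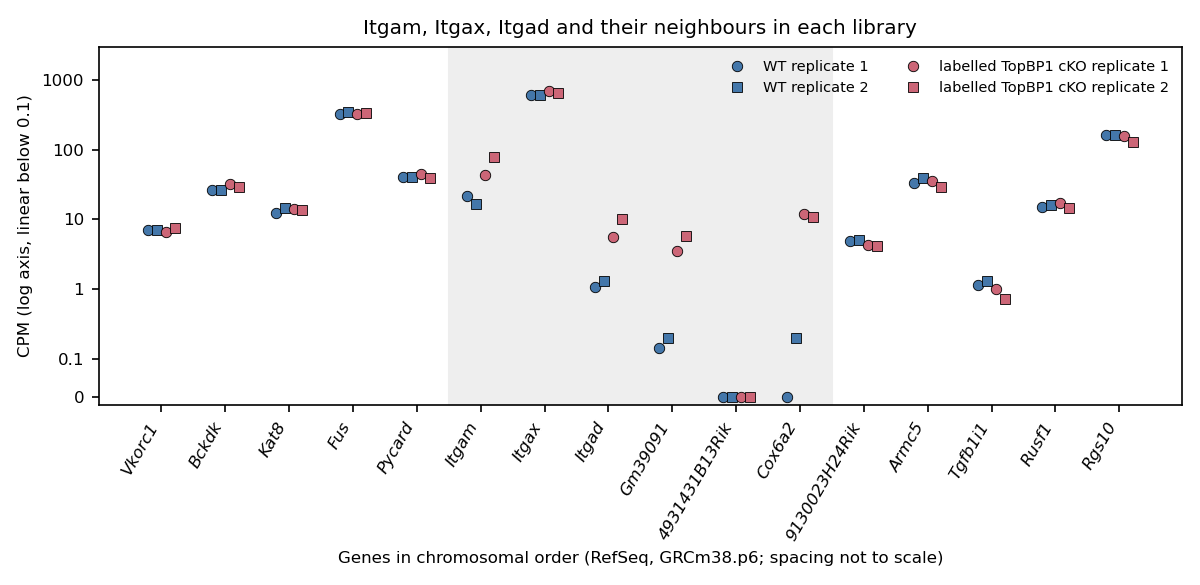
CPM (vertical axis, logarithmic and linear below 0.1) of the counted genes from 5 tested genes before Itgam to 5 after Cox6a2, in chromosomal order, in WT (blue) and in cKO-labelled libraries (red). Circles are replicate 1, squares are replicate 2, and the shaded stretch runs from Itgam to Cox6a2. Within it Itgam, Itgad, Gm39091 and Cox6a2 lie higher in both cKO-labelled libraries, with Itgax nearly level between them, and 4931431B13Rik is at 0 in all.

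Promoters were compared because Itgam and its neighbour Itgax lie side by side and differed in their fold changes. RefSeq promoter sequences (GRCm38.p6) were matched for 6 of the 10 members, and the 250 bases before each start were searched on both strands for GAGGAA (a core bound by PU.1), for the ETS–IRF composite element in either order, and for an IRF repeat of the interferon-stimulated response type. GAGGAA can overlap the ETS part of the composite. The promoters of Itgam and Itgax follow, both on the + strand, with GAGGAA or its reverse complement in capitals.
Itgam, chr7:128062390-128062639: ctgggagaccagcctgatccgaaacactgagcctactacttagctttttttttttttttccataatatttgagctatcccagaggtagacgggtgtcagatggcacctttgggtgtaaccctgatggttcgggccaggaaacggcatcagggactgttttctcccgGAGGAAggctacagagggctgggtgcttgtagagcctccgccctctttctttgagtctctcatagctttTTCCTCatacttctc
Itgax, chr7:128129300-128129549: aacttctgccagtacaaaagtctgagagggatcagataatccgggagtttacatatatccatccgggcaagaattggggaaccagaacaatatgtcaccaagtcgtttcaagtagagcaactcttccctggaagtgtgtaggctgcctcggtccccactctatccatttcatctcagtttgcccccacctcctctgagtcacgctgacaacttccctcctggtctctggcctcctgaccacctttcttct
GAGGAA began 84 and 15 bases before the start of Itgam, 9 before that of Itgb1, and 218 and 7 before that of Itgav, and these letters were not in the windows of Itgax, Itgb7 and Itga4. It is present in 23.3% of the 32851 promoters of the table. The composite was in none of the 6 windows, against 2.30% of all promoters for each order, and the IRF repeat was in none, against 2.98%. A match of letters is a description and not a site.

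The genes whose pattern over the 4 libraries was most like that of Itgam were sought among 10259 genes with a mean of at least 50 counts, by the root mean square difference of their centred log2 CPM. They were Olfm4, a secreted glycoprotein of neutrophil granules (difference 0.138), the replication kinase gene Cdc7 (0.139), the clamp loader gene Rfc4 (0.141), the transporter gene Abca13 (0.142) and the spindle gene Spag5 (0.161). Cdc7, for instance, was at 5.37 and 4.56 CPM in WT and at 9.52 and 20.1 CPM in the cKO-labelled libraries, highest in replicate 2 as Itgam was. Those most like Itgad were Itgb2l, a gene related to Itgb2 (0.309), the cohesion gene Dscc1 (0.321), the neutrophil granule gene Lcn2 (0.346), Slfn4 (0.361) and the cell cycle inhibitor gene Cdkn1a (0.371). Itgb2l was at 2.33 and 3.31 CPM in WT and at 10.7 and 12.2 CPM in the cKO-labelled libraries (log2 fold change 2.01, FDR = 0.0798, edgeR quasi-likelihood test). With 4 libraries many genes can share a pattern, and the likeness itself was not tested. The FDR of Itgb2l belongs to a gene picked for its pattern, so it is a description only.

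The other genes of integrin biology were taken by role. Of 16 other integrin subunit genes 10 were tested, 0 passed FDR < 0.05 in edgeR's quasi-likelihood test, in its likelihood ratio test, in the DESeq2 Wald test or in limma-voom. In the first of these 2 had an unadjusted P < 0.05, both lower, and the median log2 fold change was 0.06. Itga8, a partner of β1 and the gene of the list with the highest CPM, was at 68.7 and 63.6 CPM in WT and 54.2 and 43.7 CPM in the cKO-labelled libraries (log2 fold change −0.44, SE 0.15, FDR = 0.365). With protein-coding accessions only, the log2 fold change of Itga8 was −0.056 (unadjusted P = 0.746, edgeR quasi-likelihood test, FDR = 0.937), and without cKO-labelled replicate 2 it was −0.29. Itga1, a collagen receptor chain, was at 31.5 and 24.1 against 22.1 and 18.6 CPM (log2 fold change −0.45, SE 0.19, FDR = 0.457), and its log2 fold change was −0.24 without WT replicate 1, short of the unadjusted threshold. Itga7, Itga11 and Itgb6 were at 0 in all libraries. Itgb2l, described above, is not on this list. It passed in the DESeq2 Wald test (FDR = 0.00012) and the likelihood ratio test (FDR = 4.05e-07), but not in the quasi-likelihood test (FDR = 0.0798) or limma-voom (FDR = 0.123). It had been picked for its likeness to Itgad, whose groups did not overlap, so these tests decide nothing.

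Of 15 ligand genes 10 were tested, 0 passed FDR < 0.05 in the quasi-likelihood test and 3 had an unadjusted P < 0.05, all higher, with a median log2 fold change of 0.41. DESeq2 called 1 of them, the likelihood ratio test 1 and limma-voom 0. Cdh1, E-cadherin and the ligand of CD103, was at 1.20 and 0.794 CPM in WT and 2.82 and 2.33 CPM in the cKO-labelled libraries (log2 fold change 1.36, SE 0.43, FDR = 0.351). C3, whose fragment iC3b is bound by CD11b and CD11c integrins, was at 40.6 and 35.7 against 69.2 and 60.7 CPM (log2 fold change 0.77, SE 0.14, FDR = 0.232). Spp1, osteopontin, was at 6.15 and 5.95 against 7.94 and 13.2 CPM (log2 fold change 0.80, FDR = 0.389, and 0.39 without cKO-labelled replicate 2, short of the unadjusted threshold). Tgfb1, with the highest CPM of the list and a partner of αV in its latent form, was at 252 and 289 against 281 and 256 CPM, and Madcam1 was at 0 in all libraries.

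Of 11 inside-out activators 10 were tested and 0 had an unadjusted P < 0.05 in the edgeR quasi-likelihood test, with log2 fold changes from −0.21 to 0.32 and a median of −0.07. Talin (Tln1), which binds β tails and had the highest CPM of these, was at 1234 and 1219.9 CPM in WT and 1198 and 1353 CPM in the others. Of the 7 inhibitors, all tested, with a median of 0.06, Sharpin (log2 fold change −0.32, SE 0.13, FDR = 0.439) and Cytip, which holds back LFA-1 activation (−0.40, SE 0.17, FDR = 0.464), had an unadjusted P < 0.05, both lower. Cytip was at 320.4 and 295 CPM in WT and 273 and 194 CPM in the cKO-labelled libraries. Its log2 fold change was −0.66 without cKO-labelled replicate 1 (FDR = 0.000345, edgeR quasi-likelihood test) and −0.18 without replicate 2 (FDR = 0.587), where the unadjusted threshold was no longer met. No activator or inhibitor passed FDR < 0.05 in any of the 4 tests. All 20 genes of outside-in signalling were tested, with a median of 0.02 and 1 at an unadjusted P < 0.05. The quasi-likelihood test and limma-voom called 0 of them at FDR < 0.05, and the other tests 1 each. The gene at the unadjusted threshold was Fgr, a Src-family kinase of myeloid cells, at 28.1 and 34.3 CPM in WT and 61.3 and 66.0 CPM in the cKO-labelled libraries (log2 fold change 1.03, SE 0.15, FDR = 0.0990).

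Neutrophils carry CD11b, and their markers were examined beside Itgam and Itgad. Of 15 neutrophil markers all were tested, 5 passed FDR < 0.05 in the edgeR quasi-likelihood test, all higher in the cKO-labelled libraries, and 12 were higher in both of those libraries, with a median log2 fold change of 1.39. The DESeq2 Wald test called 8 of them, the likelihood ratio test 10 and limma-voom 5. The summed level of the list was 1549 and 1282 CPM in WT and 3296 and 2483 CPM in the cKO-labelled libraries. The 5 were genes of granule and cytosolic antimicrobial proteins, Ltf (log2 fold change 1.69, FDR = 0.00634), Lcn2 (1.79, FDR = 0.00634), Ngp (1.48, FDR = 0.00762), S100a8 (1.53, FDR = 0.00634) and S100a9 (1.48, FDR = 0.00762). Without WT replicate 2 none of these 5 passed (FDR from 0.148 to 0.196), and without WT replicate 1 Ngp and S100a9 did not (FDR = 0.0962 and 0.0739). Ly6g, which defines mature neutrophils, was at 1.13 and 0.860 CPM in WT and 3.22 and 4.33 CPM in the other group. Mpo, Elane and Prtn3 were not higher in both. Mpo, with the highest CPM of the list, was at 598 and 423 against 874 and 195 CPM, so cKO-labelled replicate 2 was the lowest library for Mpo and the highest for Itgam. No neutrophil marker was at 0 in all libraries. The cells were sorted on CD24, CD11c and CD117. The part of neutrophil RNA in the levels of Itgam, Itgad and Itgae was not tested.

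Of 8 cDC2 markers 0 passed FDR < 0.05 in the edgeR quasi-likelihood test or limma-voom, and 1 each in the DESeq2 Wald and likelihood ratio tests. In the first, 3 had an unadjusted P < 0.05, all higher. Sirpa was at 25.4 and 32.0 CPM in WT and 51.7 and 63.8 CPM in the cKO-labelled libraries (log2 fold change 1.01, SE 0.17, FDR = 0.182). Irf4 had a log2 fold change of 0.47 (FDR = 0.364) and Clec4a4 of 1.01 (FDR = 0.465). Without WT replicate 1 these were 0.39 for Irf4 and 0.65 for Clec4a4, both short of the unadjusted threshold. The summed level, led by Notch2, was 683 and 612 against 604 and 710.2 CPM. Of 12 macrophage and monocyte markers 10 were tested and 0 passed in any of the 4 tests. Csf1r (0.59, FDR = 0.309) and Cx3cr1 (0.60, FDR = 0.434) were higher at an unadjusted P < 0.05. The complement gene C1qb was lower at that threshold (1.13 and 1.52 against 0.197 and 0.453 CPM, FDR = 0.346). C1qb passed the filter on low counts only through the WT libraries, where it was high, so its test is a description only. The summed level of the list, led by Ccr2, was 618 and 597 against 709.8 and 549 CPM. Cx3cr1 was at 9.26 and 14.2 CPM in WT and 17.2 and 18.2 CPM in the others, and its log2 fold change was 0.32 without WT replicate 1, short of the unadjusted threshold, and 0.93 without WT replicate 2. Of 6 mast cell and basophil markers, 0 passed FDR < 0.05 in the edgeR quasi-likelihood test or limma-voom, 2 passed in DESeq2 and 1 in the likelihood ratio test. In the first, 4 had an unadjusted P < 0.05, all higher, among them Mcpt8 (1.80, FDR = 0.106), and the summed level, led by Prss34, was 31.2 and 27.2 against 84.9 and 46.4 CPM. For the cDC1 markers, which include Itgae itself, the median log2 fold change was −0.17, and Itgae was the only one of the 8 with a higher level at an unadjusted P < 0.05, beside Cadm1 (−0.51, FDR = 0.347) with a lower one. No gene of the cDC2, macrophage and monocyte, mast cell and basophil or cDC1 lists was at 0 in all libraries.

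The cKO-labelled replicate 2 also stood apart in genes of the cell cycle. The summed level of 10 such genes was 529 and 513 CPM in WT, 669 CPM in cKO-labelled replicate 1 and 1814 CPM in replicate 2. All 10 were higher at an unadjusted P < 0.05 in the edgeR quasi-likelihood test, as were 6.95% of all genes tested. None passed FDR < 0.05 in that test or limma-voom, against 3 under DESeq2 and 4 under the likelihood ratio test. Mcm2 was at 25.6, 26.7, 45.2 and 123 CPM in the order of libraries given above. Itgam, Itgad, Itgae and Itgb2 were all highest in this library. In cKO-labelled replicate 1 alone against WT, the log2 fold changes were 1.20 for Itgam, 2.23 for Itgad and 0.53 for Itgae.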

How the data were processed

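Count files of 4 libraries were used, 2 per group, grouped by their labels. The deposited values are whole-number counts per transcript, which the authors left without normalization. Submitters' processing notes name fastp, STAR, Salmon, GATK and GRCm39, with no versions or roles. Whether the counts are reads or rounded Salmon estimates, strand use, any molecular identifiers and how reads shared by transcripts were divided are not given in the sources used here.

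Counts were summed per symbol, including 2558 rows that have a symbol but no accession (2143289 counts over the 4 libraries). Genes passing filterByExpr (12393 of 19815 with a count) were tested in edgeR 4.0.16 (TMM, glmQLFit, glmQLFTest, Benjamini–Hochberg over all of them), under R 4.3.3 and Python 3.11.15. The biological coefficient of variation was 15.2%. DESeq2 1.42.0 and limma 3.58.1 served as alternatives. Lengths, transcript sequences and gene order came from GENCODE M21 and RefSeq on GRCm38, so no other coordinates are given. No pair of libraries was a duplicate (chi-square per degree of freedom at least 11.2).

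Members, gene lists and tests were chosen with earlier results of these data known. Genes were named from the members, Topbp1, the gate genes, Flt3 and Xcr1. In each list, genes past FDR < 0.05 or an unadjusted P < 0.05 were taken, with the gene of the highest CPM. Not every one of these is named. The genes from Itgam to Cox6a2 and beside Itgal were also named, as were the 5 genes most like Itgam and Itgad. Wilson and exact binomial intervals and limits from 0 counts cover counting error only, since copies made by PCR are not separate molecules, whereas intervals of log2 fold changes include the spread between libraries.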

Additional observations from a re-analysis of the deposited data

How the results depend on the processing

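With 2 libraries per group, Itgb2, Itgb7, Itgav and Topbp1 took their direction from 1 library. On leaving out a library, the log2 fold change ran from −0.038 to 0.47 for Itgb2, from −0.33 to 0.08 for Itgb7, from −0.24 to 0.092 for Itgav and from −0.60 to 0.11 for Topbp1. The turn came without cKO-labelled replicate 2 for Itgb2 and Itgb7, and without cKO-labelled replicate 1 for Itgav and Topbp1. The log2 fold changes of Itgam (1.20 to 2.02), Itgad (2.23 to 3.09) and Itgae (0.53 to 0.87) stayed positive under all 13 alternatives. Itgam passed FDR < 0.05 in 5 of them, Itgad in 6 and Itgae in 4. Members at FDR < 0.05 numbered 0 in the reported test, 3 under the DESeq2 Wald test, 3 under the edgeR likelihood ratio test, 1 with no filter on low counts, and from 0 to 5 on leaving out a library. Members at an unadjusted P < 0.05 then numbered from 3 to 6, those higher in both or the remaining cKO-labelled library from 4 to 6, and those lower from 2 to 5. In the same fits 4.61% to 33.1% of all genes had an unadjusted P < 0.05, 33.1% to 41.3% were higher and 32.9% to 40.7% lower, since groups overlap less often with fewer libraries. The highest member counts at both thresholds came without cKO-labelled replicate 1, where 21.2% of all genes passed FDR < 0.05 and 33.1% the unadjusted one. Over all genes 13 passed FDR < 0.05, against 137 under the DESeq2 Wald test, 234 under the likelihood ratio test, 19 (0.0959% of those tested) with no filter on low counts, 7 with protein-coding accessions only, 0 with each transcript tested alone, and from 1 to 2628 on leaving out a library. Where 1 library was left in a group, it was assumed to vary like the other group. The cause of these differences was not tested.

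The replicate number as a block gave 3 members and 504 genes past FDR < 0.05. Whether same-numbered libraries were prepared together is not given in the sources used here. The deviations of same-numbered libraries had a correlation of −0.0147, which cannot decide this with 2 libraries per group. Itgad rests on 15 and 20 counts in WT.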

Other observations

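The summed level of 6 B cell markers, led by Ms4a1, was 32.9 and 28.2 CPM in WT and 38.8 and 33.9 CPM in the cKO-labelled libraries. For 6 NK cell markers, led by Klrd1, it was 32.9 and 33.5 against 48.0 and 29.0 CPM. The 6 T cell markers found among 7 listed, led by Cd4, summed to 11.7 and 12.9 against 22.1 and 14.9 CPM, and 6 erythroid markers, led by Hba-a1, to 10.4 and 9.86 against 13.7 and 13.8 CPM. The 6 megakaryocyte and platelet markers summed to at most 0.495 CPM in any library, with Treml1 at 0 in all. The 8 pDC markers summed to 202 and 208 CPM in WT and to 182 and 176 CPM in the cKO-labelled libraries. Of these markers Cox6a2, beside Itgad, was the only one to pass FDR < 0.05, and it passed the filter on low counts only through the cKO-labelled libraries. Tcf4, with the highest CPM of them, was at 109 and 121 CPM in WT and 92.0 and 90.0 CPM in the others.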
